A study of Mus musculus with 6 samples.

Results

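The FKBP and cyclophilin immunophilins described here are 10 genes, 7 of the FKBP family (Fkbp1a, Fkbp1b, Fkbp2, Fkbp3, Fkbp4, Fkbp5 and Fkbp8) and 3 cyclophilins (Ppia, Ppib and Ppif), taken by symbol from a table of 23079 gene rows. They were selected on the difference between knockdown and control in these same libraries, so that difference is given as a description, without a test. All 10 passed the filter on low counts. The libraries come from mice of the C57BL/6 background that carry Dat bacTRAP, a transgene that marks cells with an active dopamine transporter gene by a tagged ribosomal protein. The knockdown group (3 libraries) received an AAV1 vector with a Satb1 shRNA and EGFP, and the control group (3 libraries) received AAV1 with a scrambled shRNA and EGFP. Both groups thus share the transgene, the virus and EGFP, and the mice were 4 months old. The labels count 3 mice for the 6 libraries without tying a library to a mouse, and describe dissection of 2 dopaminergic areas, the compact part of the substantia nigra and the ventral tegmental area, from 1 mm slices, without stating which region a library holds or whether tagged ribosomes were captured. Spread between libraries may therefore be technical.

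Immunophilins are the cellular receptors of immunosuppressive drugs and catalyse the cis-trans isomerisation of peptide bonds before proline. FKBP proteins bind FK506 and rapamycin, and cyclophilins bind cyclosporin A; the drug complexes of FK506 and cyclosporin inhibit the phosphatase calcineurin, and that of rapamycin inhibits the kinase mTOR. Without drug, members serve protein folding, steroid receptor maturation with HSP90, gating of calcium release channels and control of the mitochondrial permeability pore. They are abundant in brain.

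The deposited counts summed to between 147486754 and 164554674 in the knockdown libraries and between 160792736 and 170351145 in the control libraries, and levels are given as CPM, counts scaled to a common library size by the trimmed mean of M-values (TMM). The target Satb1 was at 82.9, 166 and 61.2 CPM in knockdown libraries 1 to 3, against 351, 349.6 and 319.8 CPM in the controls (edgeR adjusted p = 0.00106), though exons of other transcripts overlap its own. In the fit across all 16766 genes, edgeR called 1421 genes (8.48%) higher and 2115 (12.6%) lower in the knockdown. Leaving out knockdown library 1 gave 804 higher and 1132 lower genes, and leaving out control library 2 gave 910 and 1322. Of 13 dopamine neuron markers, 8 were lower, with a summed level of 9106 to 11444 CPM in the knockdown and 13492 to 14832 CPM in the controls. Of 13 oligodendrocyte markers, 10 were higher, with 666 to 755 CPM in the knockdown and 424 to 491 CPM in the controls. Of 10 astrocyte markers, 2 were higher and 1 lower (489 to 606 CPM in the knockdown, 460.0 to 566 CPM in the controls), and of 11 microglia markers, 2 were higher and 1 lower (25.7 to 33.6 CPM and 25.8 to 27.4 CPM). No endothelial marker of 7 was called (4.06 to 6.73 CPM and 3.39 to 5.83 CPM), and 1 of 5 GABA neuron markers was higher (217 to 314 CPM and 199 to 246 CPM). The median log2 fold change was -0.49 for dopamine neuron, 0.61 for oligodendrocyte, 0.51 for astrocyte and 1.08 for microglia markers. It was 0.59 for endothelial and 0.25 for GABA neuron markers. The lower astrocyte and microglia markers, Slc1a2 (177 against 245 CPM) and P2ry12 (13.8 against 18.9 CPM), held a large part of those sums. For endothelial markers in either direction, dopamine neuron markers higher and oligodendrocyte or GABA neuron markers lower, the count was 0 in edgeR, DESeq2 and limma-voom and also at an unadjusted p under 0.05. None of the markers was at 0 in any library. Whether the RNA came from whole tissue or from captured ribosomes is not stated. Fewer cells of a type, less RNA per cell and, if there was a capture, a difference in its purity cannot be told apart. The part of these shifts in the immunophilin values was not tested.

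Per kilobase of their principal transcript, the immunophilins spanned a wide range of levels. Ppia, the gene of cyclophilin A, stood at the top with 2276 ± 84.9 CPM per kilobase in the knockdown and 2883 ± 13.9 in the controls (SD, n = 3 each). Fkbp3 followed with 482 ± 11.4 and 550.5 ± 1.34, and Fkbp1a with 185 ± 40.0 and 472 ± 53.4. Fkbp5, which encodes FKBP51, stood at the bottom with 4.61 ± 0.149 in the knockdown and 4.50 ± 0.381 in the controls. In the controls the order downwards was Ppia, Fkbp3, Fkbp1a, Fkbp2, Fkbp1b, Fkbp4, Fkbp8, Ppif, Ppib and Fkbp5, and only the neighbours Ppif and Ppib overlapped over the 3 libraries. In the knockdown Fkbp4 stood above Fkbp1b and Ppib above Ppif, and the ranges of Fkbp1a, Fkbp2, Fkbp4 and Fkbp1b each met the next. With the union of all coding exons as the length, Fkbp2 moved below Fkbp1b and Fkbp4 in both groups, because its transcripts differ in length. Ppia stayed highest with that length but came to 1331 CPM per kilobase in the knockdown and 1686 in the controls. Shares of the summed level therefore depend on the length used. By the principal transcript, Ppia made up 63.4, 63.5 and 65.0% of the summed level per kilobase of the 10 genes in knockdown libraries 1 to 3. In the controls it made up 60.8, 62.8 and 62.2%. Fkbp1a made up 5.16, 6.19 and 4.22% in the knockdown libraries, against 11.2, 9.48 and 9.67% in the controls. Its share had no overlap between the groups, which restates its lower level in the knockdown.

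**Figure D1:**
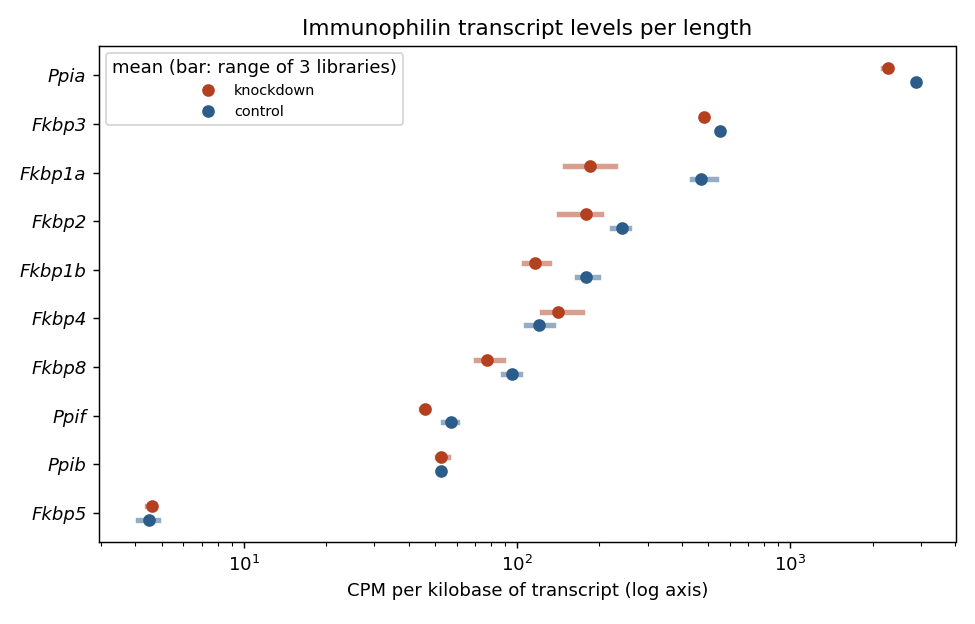
Mean level of each immunophilin gene in CPM per kilobase of principal transcript (log axis) in knockdown and control libraries, with bars for the range of 3 libraries. Ppia lies highest and Fkbp5 lowest in both groups, and the groups of Fkbp1a are the farthest apart, at 185 in the knockdown and 472 in the controls.

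Of the 10 genes, 5 (Fkbp1a, Fkbp1b, Fkbp2, Ppia and Ppif) were called lower in the knockdown by the edgeR fit across all genes, where 12.6% of all tested genes were called lower, and none was called higher, against 8.48%. For 7 genes all knockdown libraries lay below all control libraries, as did 20.8% of all tested genes (38.7% were apart in either direction), and for 3 the groups overlapped. The median log2 fold change of the 10 genes was -0.31, beside 0.01 for all genes tested. These counts restate the contrast by which the genes were picked. With total counts in place of TMM, the median of all genes moved to 0.18, only Fkbp1a and Fkbp1b were called lower and Fkbp4 was called higher. Leaving out knockdown library 1 or 3, or control library 1 or 2, left 3 members called lower.

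Fkbp1a and Fkbp1b encode FKBP12 and its close relative, the small cytosolic FKBPs that consist of a drug-binding isomerase domain alone and stabilise ryanodine receptors. Their coding sequences are of the same length, 324 bases before the stop codon, and identical at 74.7% of positions, with 14 bases as the longest identical run in the alignment. The first 150 coding bases, read from the GENCODE transcripts of GRCm38, are shown because reads of these genes are told apart by such differences; capitals mark the 31 bases that differ.
Fkbp1a: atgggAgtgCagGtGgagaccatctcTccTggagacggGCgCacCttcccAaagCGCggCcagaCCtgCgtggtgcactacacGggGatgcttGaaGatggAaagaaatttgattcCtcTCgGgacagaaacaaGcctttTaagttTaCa
Fkbp1b: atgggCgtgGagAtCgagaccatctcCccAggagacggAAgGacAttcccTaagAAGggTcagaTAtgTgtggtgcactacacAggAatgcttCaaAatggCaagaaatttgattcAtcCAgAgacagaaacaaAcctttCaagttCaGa

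Fkbp1a lies on the plus strand of chromosome 2 from 151542483 to 151561692 (GRCm38), and its exons overlap no other annotated gene. It was at 295, 379 and 248 CPM in knockdown libraries 1 to 3, against 885, 725 and 739 CPM in control libraries 1 to 3. Every knockdown library was thus well below every control, with library 2 the least so. The log2 fold change was -1.35 ± 0.14 (SE), or 2.55-fold lower, and -1.18 with total counts. Among all genes called lower its log2 fold change ranked 28 from the most negative. Among the 429 tested genes whose control mean was at least 0.5 of its own, it ranked 1. That bound leaves out Satb1 and was set from the level of Fkbp1a. These ranks restate the contrast by which the gene was picked.

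Fkbp1b, on chromosome 12 (4833174 to 4841591, minus strand), overlaps no other gene's exons either. Its level was 108, 128 and 104 CPM in the knockdown libraries, against 192, 161 and 167 CPM in the controls. The groups did not overlap, and again knockdown library 2 was nearest to the controls. Its log2 fold change came to -0.62 ± 0.11 (SE), or 1.53-fold lower. Per kilobase, Fkbp1a exceeded Fkbp1b by a ratio of 1.61, 1.74 and 1.41 in knockdown libraries 1 to 3, against 2.71, 2.64 and 2.60 in the controls. The ratio did not overlap between the groups, which restates the more negative log2 fold change of Fkbp1a. Fkbp1a, Fkbp1b and Fkbp2 shared the order of Satb1 in the knockdown, with library 3 lowest, then library 1, then library 2; 19.6% of all tested genes and 46.2% of those called lower have this order.

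The proteins aside, the promoters of the FKBP12 pair differ in their A and T content, a feature shown because SATB1 binds AT-rich DNA. The windows of 300 bases around the start sites come from RefSeq (GRCm38.p6), which held all 10 genes, and capitals mark the longest run of A and T letters. The first is chr2:151542233-151542532 on the plus strand and the second is chr12:4841524-4841823 on the minus strand.
Fkbp1a promoter: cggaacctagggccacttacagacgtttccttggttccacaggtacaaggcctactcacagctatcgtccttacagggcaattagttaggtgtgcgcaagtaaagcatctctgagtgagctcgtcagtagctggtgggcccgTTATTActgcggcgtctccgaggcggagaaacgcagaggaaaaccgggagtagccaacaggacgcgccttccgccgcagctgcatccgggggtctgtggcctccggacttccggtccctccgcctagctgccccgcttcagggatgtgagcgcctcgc
Fkbp1b promoter: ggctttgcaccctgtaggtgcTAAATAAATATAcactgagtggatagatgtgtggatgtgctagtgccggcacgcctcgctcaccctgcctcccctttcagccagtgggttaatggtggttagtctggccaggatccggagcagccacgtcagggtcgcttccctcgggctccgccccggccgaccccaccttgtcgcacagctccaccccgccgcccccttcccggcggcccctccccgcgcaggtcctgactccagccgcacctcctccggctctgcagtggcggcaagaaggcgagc

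The run in Fkbp1a has 6 letters, a length that 69.6% of all 32851 promoter windows reach, and that in Fkbp1b has 12, which 14.1% reach. A and T made up 39.7% of the Fkbp1a window and 34.3% of that of Fkbp1b. Over the 12 windows of the 10 genes the share lay between 29.3 and 40.3%, below the median of 47.3% over all windows. The windows were also searched on both strands for GGGCGG, the core of the Sp1 site, for CCAAT and for TATAAA, which do not overlap each other. GGGCGG occurred in 9 of the 10 genes and in 35.7% of all windows, CCAAT in 6 genes and 37.4% of all windows, and TATAAA in Ppia alone and 13.6% of all windows. A gene counted if any of its windows held the motif, and Fkbp2 had several windows, so counts of genes and shares of windows differ in unit. Fkbp1a was the only gene with none of the 3 motifs, though a window of Fkbp2 also held none. These matches describe the letters only.

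Ppia encodes cyclophilin A, the main cytosolic target of cyclosporin, and lies on the plus strand of chromosome 11 from 6415443 to 6419817. Its promoter window (chr11:6415617-6415916, plus strand) is shown as that of the most abundant member; capitals mark 4 matches to GGGCGG or its reverse complement and the 1 match to TATAAA.
Ppia promoter: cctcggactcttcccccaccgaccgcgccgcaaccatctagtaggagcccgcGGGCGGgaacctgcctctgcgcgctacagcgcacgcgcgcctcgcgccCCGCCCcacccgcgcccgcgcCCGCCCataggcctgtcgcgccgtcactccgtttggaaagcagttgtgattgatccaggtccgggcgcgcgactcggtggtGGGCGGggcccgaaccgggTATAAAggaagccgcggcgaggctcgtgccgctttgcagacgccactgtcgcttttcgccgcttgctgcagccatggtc

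Ppia was at 2551, 2742 and 2695 CPM in knockdown libraries 1 to 3, against 3374, 3388 and 3356 CPM in control libraries 1 to 3. The controls were nearly alike and all knockdown libraries lay below them. Ppia had a log2 fold change of -0.34 ± 0.07 (SE), or 1.27-fold lower, which became -0.17 with total counts, where the call was lost. Of the 50-base windows of its transcript, 54.3% also occur in transcripts of 38 other annotated genes, among them Gm17494, Gm10123 and Gclm. Gclm shares 206 windows and held 7260 to 8892 counts in the knockdown and 4880 to 5565 in the controls. Ppia held 421332 to 548676 counts over the 6 libraries. The count of Ppia depends on how reads with several alignments were treated and is uncertain.

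**Figure D2:**
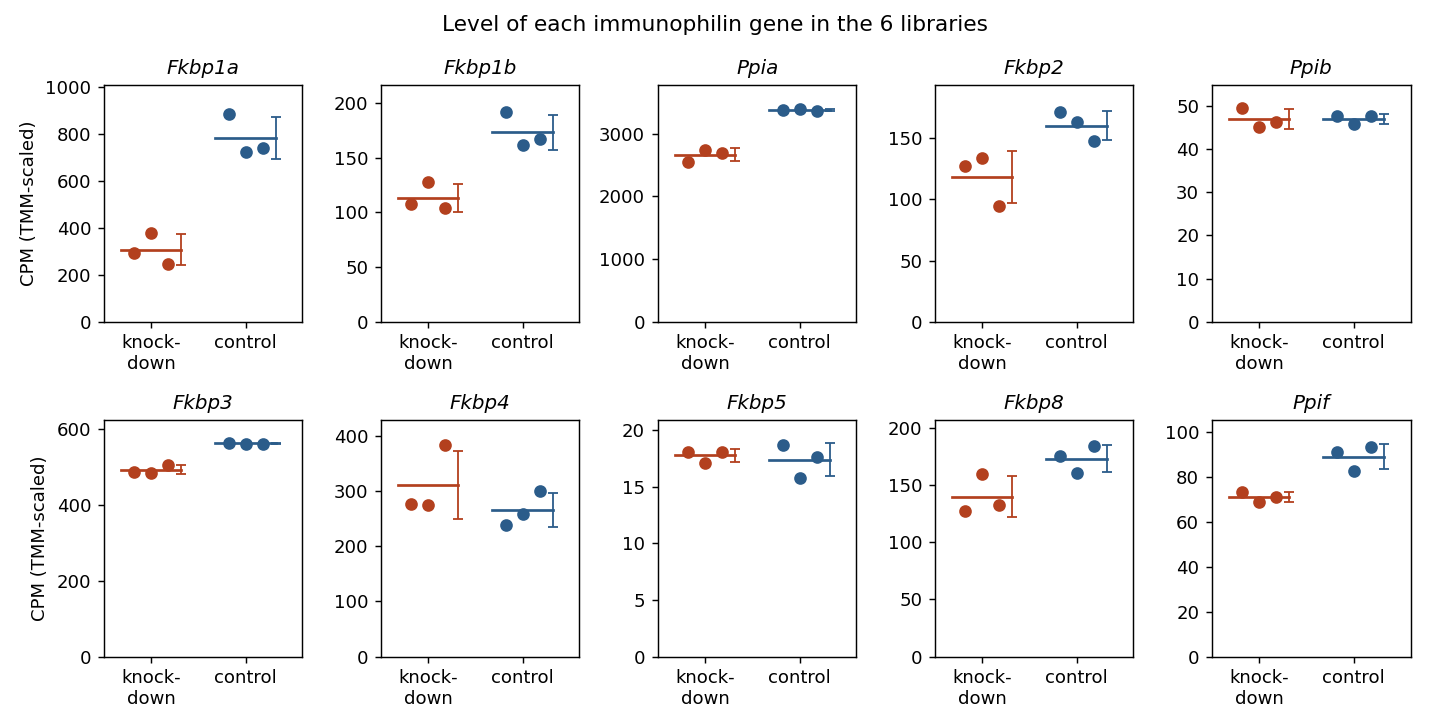
Level of each of the 10 genes in CPM in the 3 knockdown libraries (left in each panel, libraries 1 to 3 from left to right) and the 3 control libraries (right), with lines for the mean and bars for the SD. Fkbp1a and Ppia show the groups apart, as do Fkbp1b, Fkbp2, Fkbp3 and Ppif, the groups of Fkbp8 nearly touch, and those of Ppib, Fkbp4 and Fkbp5 overlap.

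Fkbp2 and Ppib encode FKBP13 and cyclophilin B, which reside in the endoplasmic reticulum and assist folding of secretory proteins. Fkbp2 (chromosome 19, minus strand, 6977741 to 6980501) was at 127, 134 and 94.3 CPM in the knockdown libraries, against 171, 163 and 148 CPM in the controls. All knockdown libraries lay below the controls, library 3 by the widest margin. Fkbp2 had a log2 fold change of -0.44 ± 0.13 (SE), -0.28 without knockdown library 3 and -0.27 with total counts. Its call was lost with total counts and on leaving out knockdown library 1 or 3 or control library 1 or 2. Ppib (chromosome 9, plus strand, 66060222 to 66066623) was at 49.6, 45.2 and 46.2 CPM in the knockdown, against 47.7, 45.7 and 47.6 CPM in the controls. Its groups overlapped and its log2 fold change was 0.00 ± 0.10 (SE), or 0.17 with total counts. Exons of Snx22 on the opposite strand cover 57.6% of the Ppib transcript, and the Snx22 row held 85.4 to 89.9% as many counts as Ppib, so the value of Ppib is uncertain if strand was not used in counting.

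Fkbp3 encodes FKBP25, a nuclear FKBP that binds nucleic acids and associates with histone deacetylases. Its locus is chromosome 12, 65062424 to 65074007, minus strand. Its level was 488, 484 and 506 CPM in knockdown libraries 1 to 3, against 564, 562 and 561 CPM in the controls. Both groups were tight and did not overlap. The log2 fold change was -0.19 ± 0.08 (SE), or 1.14-fold lower, was not called, and came to -0.02 with total counts. Exons of Prpf39 on the opposite strand cover 31.0% of the Fkbp3 transcript. Prpf39 held 71.5 to 73.8% as many counts and had a log2 fold change of -0.21. Reads in the covered part cannot be told apart without strand, so the value of Fkbp3 is uncertain if strand was not used in counting.

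Fkbp4, Fkbp5 and Fkbp8 encode the larger FKBPs with tetratricopeptide repeats, which dock onto HSP90. FKBP52, from Fkbp4, aids the glucocorticoid receptor on its way to the nucleus, and FKBP51, from Fkbp5, lowers the receptor's affinity for hormone and is itself induced by glucocorticoids. Their coding sequences are 62.4% identical. Fkbp4 (chromosome 6, minus strand, 128429735 to 128438677) was at 277, 274 and 383 CPM in the knockdown libraries, against 239, 259 and 300.1 CPM in the controls. Knockdown library 3 was the highest of all 6, and the groups overlapped. The log2 fold change was 0.23 ± 0.13 (SE), 0.06 without knockdown library 3 and 0.39 with total counts, where it was called higher. Fkbp5 (chromosome 17, minus strand, 28399094 to 28517527) was at 18.1, 17.1 and 18.1 CPM in the knockdown, against 18.7, 15.8 and 17.6 CPM in the controls. These ranges overlapped, with a log2 fold change of 0.03 ± 0.12 (SE), or 0.20 with total counts and -0.03 without control library 2. Per kilobase, Fkbp4 exceeded Fkbp5 by a ratio of 26.6, 27.8 and 36.8 in knockdown libraries 1 to 3, against 22.2, 28.6 and 29.6 in the controls, so this ratio overlapped between the groups.

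FKBP38, the product of Fkbp8, is anchored in the outer membrane of mitochondria, where it binds BCL2 and takes part in mitophagy. Fkbp8 lies on the plus strand of chromosome 8 from 70527724 to 70535328. It was at 127, 159.9 and 132 CPM in knockdown libraries 1 to 3, against 175, 160.0 and 184 CPM in control libraries 1 to 3. Knockdown library 2 was level with control library 2 but for the rounding, so the groups only just stay apart, and the other knockdown libraries were lower than every control. Fkbp8 had a log2 fold change of -0.31 ± 0.11 (SE). It was not called by edgeR but was called lower on all 6 libraries by DESeq2 (-0.29) and limma-voom (-0.31), and by edgeR without knockdown library 2 (-0.41). It came to -0.14 with total counts. Exons of 2810422J05Rik (Kxd1 in GENCODE), on the opposite strand, cover 6.2% of the Fkbp8 transcript, and its log2 fold change was 0.02.

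Cyclophilin D, from Ppif, is the mitochondrial matrix cyclophilin and the best known regulator of the permeability pore. Ppif lies on the plus strand of chromosome 14 from 25694154 to 25700468. It was at 73.3, 68.7 and 71.1 CPM in the knockdown libraries, against 91.1, 82.6 and 93.0 CPM in the controls. The groups did not overlap, and here knockdown library 2 was the lowest. The log2 fold change was -0.32 ± 0.09 (SE), or 1.25-fold lower. The call was lost with total counts, where the value was -0.15, and on leaving out any of the 6 libraries. Ppifos is the antisense RNA whose GENCODE exons overlap 152 bases (9.8%) of the Ppif transcript. Its row held between 96.2 and 97.0% as many counts as Ppif in every library, and its log2 fold change was -0.33. That overlap is small beside this share of counts, and the gene models used in counting are not given. Whether the rows of Ppif and Ppifos hold the same reads was not tested, so the value of Ppif is uncertain.

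**Figure D3:**
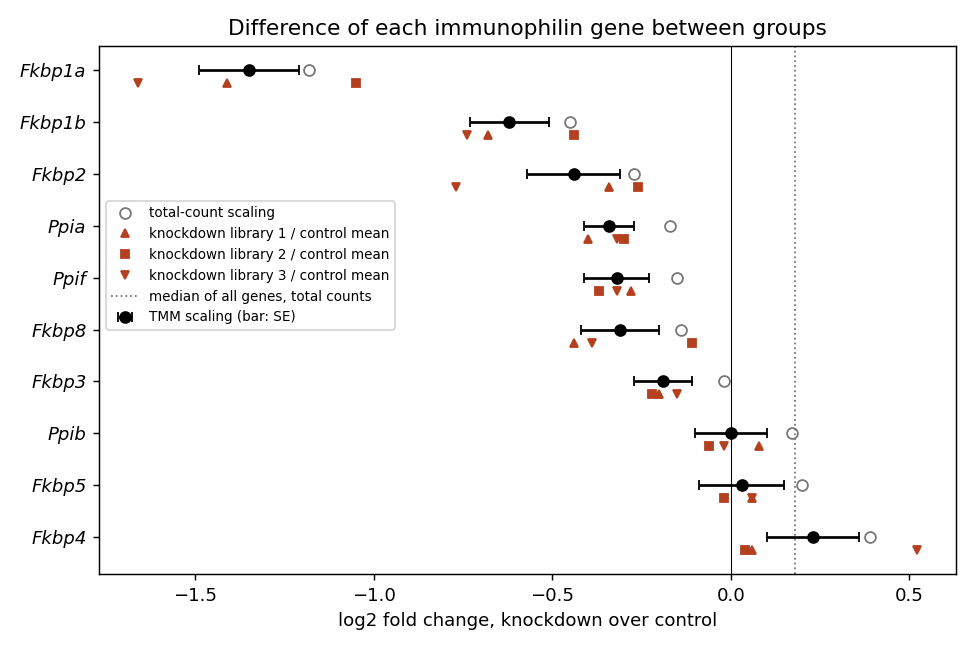
Log2 fold change of each gene, knockdown over control, with TMM scaling (filled, bar for the SE) and total-count scaling (open), and log2 of each knockdown library's CPM over the control mean (triangles and squares). Fkbp1a lies at -1.35 and Fkbp4 at 0.23; total counts shift every gene to the right, as they do the median of all genes (dotted, 0.18).

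Genes that work with the immunophilins or share their activity were described by 6 lists, whose calls come from the same edgeR fit with its adjustment over all 16766 genes and stand beside 21.1% called among all tested genes. Of 26 tested proline isomerases outside the 10 genes, 6 fell, 1 rose and 19 did not pass, with a median log2 fold change of 0.05. Ppih, a cyclophilin of the spliceosome, fell to 19.6 ± 0.723 CPM in the knockdown, against 28.5 ± 2.34 CPM in the controls (SD, n = 3 each; log2 fold change -0.54 ± 0.11, SE; adjusted p = 0.00582). Ppil4 (-0.51; adjusted p = 0.00986), a nuclear cyclophilin with an RNA-binding motif, also fell. Fkbp11 of the endoplasmic reticulum rose (0.93; adjusted p = 0.0045). Leaving out knockdown library 1 left 3 lower genes, leaving out knockdown library 2 gave 2 higher ones, and with total counts 2 were lower and 4 higher, the call of Ppil4 being lost.

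The calcineurin and NFAT genes, on which the drug complexes act, had 4 lower and 2 higher of 15 tested, with a median of -0.28. Ppp3r1, the regulatory subunit of calcineurin, fell to 263 ± 12.5 CPM in the knockdown, against 434 ± 12.3 CPM in the controls (SD, n = 3 each; log2 fold change -0.72 ± 0.08, SE; adjusted p = 0.000335). Its exons overlap those of Wdr92 on the same strand, so reads there are uncertain. Rcan2 (-0.94; adjusted p = 0.000504) and Rcan1 (-0.61; adjusted p = 0.00212), which encode regulators of calcineurin, fell as well. Nfatc3, a transcription factor that calcineurin activates, rose to 96.0 ± 14.8 CPM in the knockdown, against 38.5 ± 4.20 CPM in the controls (SD, n = 3 each). Its log2 fold change was 1.32 ± 0.13 (SE) at an adjusted p of 0.000181; it overlaps Esrp2 on the opposite strand.

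Partner receptors of FKBP12 and the mTOR complex that the rapamycin complex inhibits had 3 lower and 1 higher of 20 tested, and a median of 0.04. The higher gene was Itpr2, an inositol trisphosphate receptor, at 5.02 ± 0.612 CPM in the knockdown and 2.11 ± 0.608 CPM in the controls (SD, n = 3 each; adjusted p = 0.00634). The lower ones were Mlst8 (-0.69; adjusted p = 0.00779), Tsc2 (-0.40; adjusted p = 0.0132) and Akt1s1 (-0.62; adjusted p = 0.0304), which encode a core subunit, an upstream inhibitor and an inhibitory subunit of the complex. Exons of all 3 overlap a gene on the opposite strand. The values of Ryr2 (0.32), Ryr3 (-0.23), Tgfbr1 (0.31) and Mtor itself (-0.19), singled out after their values were seen, did not pass the test. Akt1s1 lost its call on leaving out any 1 library other than knockdown library 2. Tsc2 lost it on leaving out knockdown library 1 or control library 2, either of which left 1 list member lower. With total counts 1 was lower and 6 were higher, and the calls of Tsc2 and Akt1s1 were lost.

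**Figure D4:**
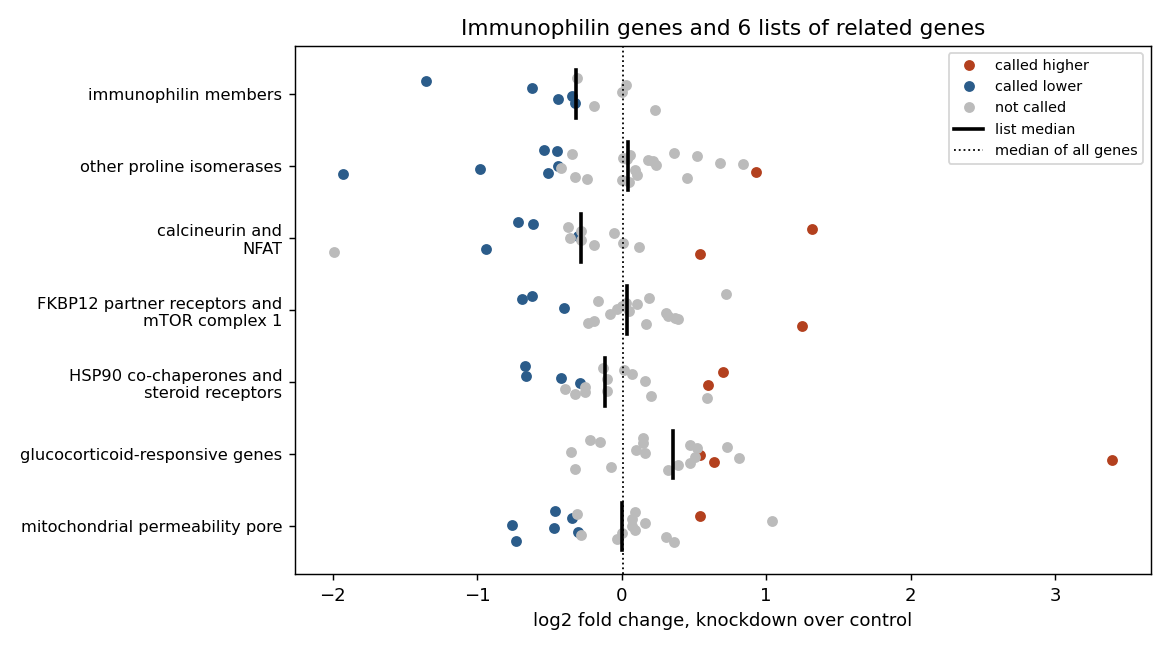
Log2 fold change, knockdown over control, of the 10 immunophilin genes and of the genes in 6 related lists, coloured by their edgeR call, with a bar for each list's median and a dotted line for that of all genes (0.01). Medians lie at -0.31 for the immunophilins and between -0.28 for calcineurin and NFAT genes and 0.36 for glucocorticoid-responsive genes.

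Among HSP90, its co-chaperones and steroid receptors, 4 of 18 fell and 2 rose, with a median of -0.11. Ppp5c, a phosphatase that like FKBP51 and FKBP52 docks by tetratricopeptide repeats, fell (-0.66 ± 0.10, SE; adjusted p = 0.00106), as did the co-chaperone genes Cdc37 (-0.42; adjusted p = 0.0098) and Unc45a (-0.67; adjusted p = 0.0118). Nr3c1, the glucocorticoid receptor, rose to 24.7 ± 3.71 CPM in the knockdown, against 15.2 ± 2.07 CPM in the controls (SD, n = 3 each; log2 fold change 0.70 ± 0.15, SE; adjusted p = 0.00544). Leaving out knockdown library 1 or control library 1 left 2 members lower, and leaving out knockdown library 1 or 3 or control library 1 or 2 left 1 higher. The call of Unc45a was lost without control library 1, and that of Cdc37 without knockdown library 1 and with total counts, where 2 members were lower and 4 higher.

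Of 20 glucocorticoid-responsive genes, 3 rose, with a median of 0.36, and none fell in edgeR, DESeq2 or limma-voom or at an unadjusted p under 0.05. The cell cycle inhibitor Cdkn1a rose to 359 ± 90.0 CPM in the knockdown, against 34.2 ± 3.60 CPM in the controls (SD, n = 3 each; log2 fold change 3.39 ± 0.17, SE; edgeR adjusted p = 4.31e-07), with an overlapping transcript on the opposite strand. The others were Bcl6 (0.54; adjusted p = 0.0218), a transcriptional repressor, and Sgk1 (0.64; adjusted p = 0.022), a kinase. The other 17 did not pass, among them Tsc22d3 (0.15, adjusted p = 0.288), Per1 (-0.15, adjusted p = 0.562) and Hif3a (0.73, adjusted p = 0.0758). Klf9 (-0.22, edgeR adjusted p = 0.152) did not pass either, though all its knockdown libraries lay below all controls (means of 39.0 and 45.4 CPM). These were singled out after their values were seen, and Fkbp5 above was not called either. Leaving out knockdown library 3 or control library 1 or 2 left 1 member higher, the calls of Bcl6 and Sgk1 being lost, and leaving out knockdown library 2 gave 5. Bcl6 also lost its call on leaving out control library 3. With total counts 6 members were higher.

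Of 19 genes of the mitochondrial permeability pore and its partners, 6 fell and 1 rose, with a median of 0.00. Slc25a4, the adenine nucleotide carrier, fell to 808 ± 84.1 CPM in the knockdown, against 1339 ± 35.4 CPM in the controls (SD, n = 3 each; log2 fold change -0.73 ± 0.09, SE; adjusted p = 0.0004). The channel genes Vdac2 (-0.76; adjusted p = 0.0004) and Vdac1 (-0.30; adjusted p = 0.0193) and Atp5o (-0.47; adjusted p = 0.00262), the ATP synthase subunit at which cyclophilin D binds, fell as well. Exons of Vdac2 and Atp5o overlap other genes. Leaving out knockdown library 1 or control library 2 or 3 left 3 members lower, and the 1 higher call was lost on leaving out knockdown library 3 or control library 1. Vdac1 lost its call on leaving out knockdown library 1 or any control library, and with total counts, where 3 members were lower and 4 higher.

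The genes most like Fkbp1a were sought by the smallest distance between centred log2 CPM profiles over the 6 libraries, among the 4285 genes that averaged 50 CPM or more. They were Glrx, the gene of a glutaredoxin, Ndufa8, that of a complex I subunit (both at a distance of 0.21 log2 units), and Map2k4, a stress kinase gene (0.28). Glrx was at 49.9, 63.7 and 37.5 CPM in knockdown libraries 1 to 3, against 127, 116 and 114 CPM in the controls. Ndufa8 was at 52.9, 70.7 and 42.9 CPM in the knockdown, against 142, 139 and 136 CPM in the controls. Map2k4 was at 229, 297 and 206 CPM in the knockdown, against 569, 549 and 557 CPM in the controls. The likeness of these profiles, library order included, is how the genes were chosen.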

How the data were processed

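RNA from 3 knockdown and 3 control libraries was analysed from raw counts per gene that the authors deposited, whole numbers with 1 column per library. Per the submitters' processing notes, TopHat2 2.0.8 and the build mm10 were used; the sources used here give no counting tool, strand setting or rule for shared reads. The members and lists were chosen with earlier results of these data known. edgeR 4.0.16 in R 4.3.3 fitted a quasi-likelihood model to all 16766 genes that passed filterByExpr (minimum count 10, minimum total 15), with TMM scaling and Benjamini-Hochberg adjustment at 0.05, 2-sided. SEs were derived from the F statistic, and CPM used the TMM factors. The fit was tested on simulated data, where it recovered 39% of genes changed 1.5-fold and 73% of those changed 2-fold. A gene that was not called may therefore still differ. Named genes were Satb1, the 10 members, up to 4 called genes with the smallest p in each list, and the 3 nearest to Fkbp1a. Of these, 1 gene is not reported here. Gene models came from GENCODE M21 (GRCm38), and 50-base windows were compared across its transcripts; levels per kilobase used the APPRIS principal transcript. Of the rows, 23008 matched RefSeq gene numbers. DESeq2 1.42.0, limma-voom in limma 3.58.1, other scalings and filters, a replicate block and leaving out each library were alternatives. Replicate pairs differed by a chi-square per gene of 58.5 to 156, where sampling noise gives about 1.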

Additional observations from a re-analysis of the deposited data

How the results depend on the processing

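Fkbp1a and Fkbp1b stayed called lower under every alternative run, and Ppia under all but total counts; of 140 values of the 10 genes under alternatives, 9 moved by more than the SD between replicates on the log2 CPM scale, and no called one changed sign. With total counts, 2770 genes were higher and 972 lower (1421 and 2115 with TMM); of the 10 genes, 1 was higher and 2 lower. The same scaling gave 4 higher and 2 lower proline isomerases, 6 and 1 FKBP12 partners, 4 and 2 HSP90 co-chaperones, 4 and 3 pore genes, and 6 higher glucocorticoid-responsive genes. DESeq2 and the filter at a mean of 1 CPM each called 2 proline isomerases, 3 FKBP12 partners and 2 pore genes higher; DESeq2 size factors in edgeR and limma-voom each called 2 pore genes higher. The cause of these differences was not tested. Replicate numbers were shared between groups, and same-numbered libraries deviated together with correlations of 0.192, 0.032 and 0.245. Knockdown library 1 against control library 3 gave -0.216, and knockdown library 3 against control library 1 gave -0.202. Libraries 1 and 3 thus correlated best with their own number and library 2 did not. Whether the numbers pair the samples cannot be told from these values. A replicate block called 1924 genes higher and 2789 lower; of the 10 genes it called 1 higher (Fkbp4, 0.21) and 7 lower, adding Fkbp3 (-0.19) and Fkbp8 (-0.31) to the 5 called without it. With the block, lower calls numbered 7 for calcineurin and NFAT and 8 for HSP90 co-chaperones, and higher calls 2 each for proline isomerases, FKBP12 partners and pore genes; knockdown library 2 correlated best with control library 1 (0.043). Leaving out each library in turn gave 804 to 1356 higher and 1132 to 2054 lower genes. It gave 3 to 5 lower among the 10 genes, 1 to 2 higher and 3 to 5 lower proline isomerases, 3 to 4 lower calcineurin genes, 1 to 3 lower FKBP12 partners, 1 to 2 higher and 2 to 6 lower HSP90 co-chaperones, 1 to 5 higher glucocorticoid-responsive genes, and 0 to 1 higher and 3 to 6 lower pore genes. Of 378 values of the 27 other genes that the naming rule gave under alternatives, 25 lost their call. Counts were high for all 10 genes (2433 in the lowest library of Fkbp5), so spread between libraries rather than counting limits them. The union exon length was added after seeing the data.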

Other observations

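The FKBPs of the endoplasmic reticulum outside the 10 genes went in different directions; they were singled out after their values were seen. Fkbp11 was at 13.4, 12.1 and 12.5 CPM in knockdown libraries 1 to 3, against 6.27, 5.11 and 8.47 CPM in the controls, and rose (edgeR adjusted p = 0.0045). Fkbp14, which acts on procollagen, was at 9.47, 9.62 and 9.08 CPM in the knockdown, against 11.7, 12.6 and 14.2 CPM in the controls, and fell (log2 fold change -0.45; edgeR adjusted p = 0.0422). Fkbp10, a collagen chaperone, fell to 0.228, 0.221 and 0.302 CPM in the knockdown, against 0.818, 1.43 and 0.625 CPM in the controls (edgeR adjusted p = 0.0404), a change between levels near the detection limit. Fkbp9 (0.52) and Fkbp7 (0.68) did not pass the test, and control library 1 held 1.51 CPM of Fkbp7 while the other controls held 0.26 and 0.249 CPM.

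Among the nuclear cyclophilins of the spliceosome, also chosen after their values were seen, Ppig was at 72.6, 80.0 and 90.5 CPM in knockdown libraries 1 to 3, against 104, 102 and 123 CPM in the controls, and fell (log2 fold change -0.44; edgeR adjusted p = 0.0152). Ppil1 (-0.32), Ppil2 (-0.24), Ppie (0.45), Ppil3 (0.09), Ppwd1 (0.18) and Cwc27 (0.22) did not pass the test. Ppid, the cyclophilin that docks onto HSP90 like FKBP52, was at 125, 119.8 and 157 CPM in the knockdown, against 111, 108 and 122 CPM in the controls. It was highest in knockdown library 3, as was Fkbp4, and its log2 fold change of 0.24 did not pass.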
